A study of Mus musculus with 6 samples.

Results

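The mitochondrial respiratory chain was represented by 91 genes, each named by the array annotation with a single symbol that began with Nduf, Uqcr, Cox4 to Cox8 or Atp5, or that was Sdha, Sdhb, Sdhc, Sdhd or Cyc1. They were 91 of the 18193 genes with a single symbol, and each gene was read from its probe set of highest mean value in these arrays. By complex they were 34 genes of complex I, 4 of complex II, 9 of complex III, 19 of complex IV and 17 of ATP synthase, plus 8 complex I assembly factors with the prefix Ndufaf. Ndufa4 and Ndufa4l2 were placed with complex IV, where the Ndufa4 protein is found. Subunits whose probe sets carry several symbols, such as Ndufa11 and Ndufs6, were not reached by the rule.

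The RNA came from T cells parked in BALB/c hosts that lacked Rag1, and so had no lymphocytes of their own, and was read on Affymetrix Mouse430_2 arrays. All groups came from the same treatment, in which a host received wild-type natural regulatory T cells (nTreg) and 500000 wild-type regulatory T cells induced in culture (iTreg). The labels' protocols speak of injection into the peritoneal cavity of mice with colitis. After 125 days, spleen and mesenteric lymph node cells of 14 mice were pooled, stained for CD4 and sorted on EGFP, a reporter of Foxp3, and on Thy1.1, a mark of the transferred iTreg cells. The nTreg group was positive for EGFP and negative for Thy1.1, the iTreg group was positive for both, and the ex-iTreg group was positive for Thy1.1 and had no EGFP. Each group had 2 arrays, called pool 1 and pool 2 here. Whether the 2 pools of a group held separate mice is not stated in the labels, so each p-value measures only the spread between pools, which may be technical. Host age is not given in the sources used here. Because the arrays read sorted bulk RNA, fewer cells of a type and less RNA per cell cannot be told apart.

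The respiratory chain passes electrons from NADH, through complex I, and from succinate, through complex II, to coenzyme Q, complex III, cytochrome c and complex IV, which reduces oxygen. The proton gradient made on the way drives ATP synthase, often called complex V. Most subunits are made from nuclear genes and imported, while a small core is encoded by mitochondrial DNA, so both genomes must be expressed for a complete chain. Regulatory T cells are known to rely on mitochondrial respiration more than activated conventional T cells do.

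Of the 91 genes, 87 passed the filter, which required a value over 5.48 on the log2 scale, the median of all deposited values, in at least 2 of the 6 arrays. The 4 that did not were Cox7b2 (mean 3.30), Cox7a1 (4.21), Ndufb4 (4.26) and Cox6b2 (4.75). Cox7b2, Cox7a1 and Cox6b2 are tissue-restricted forms of complex IV subunits. For Ndufb4 the probe set with a single symbol was near background, and 2 probe sets that it shares with near-identical copies (Ndufb4b and Ndufb4c) read 10.2 and 10.3. Counts below are over the 87 genes that passed and not over all 91.

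All 8 measured CD4 T cell markers passed the filter. Of these, 2 were higher and 0 lower in iTreg relative to nTreg (limma). Relative to iTreg, ex-iTreg had 1 higher and 1 lower, and relative to nTreg 3 higher and 3 lower. Of 5 tested regulatory T cell markers, 5 fell in ex-iTreg relative to either other group and 4 were lower in iTreg than in nTreg (limma). The defining gene Foxp3 was below the filter in all 6 arrays, at 3.99 to 4.29, so its probe set does not check the labels. Of 6 tested CD8 T and NK cell markers, 5 were higher and 1 lower in ex-iTreg relative to iTreg. They had 4 higher and 1 lower in ex-iTreg relative to nTreg, and 2 higher and 3 lower in iTreg relative to nTreg. Measures of the RNA and of other cells moved with the groups too. The spiked-in poly-A controls averaged 10.0 and 10.1 in nTreg, 11.4 and 11.3 in iTreg, and 8.81 and 8.94 in ex-iTreg arrays. The Gapdh control's 3′ minus 5′ difference was 0.15 and 0.15 in nTreg, 0.38 and 0.51 in iTreg, and 0.00 and -0.04 in ex-iTreg arrays. That of the Actb control varied less, at 0.39 and 0.40 in nTreg, 0.53 and 0.49 in iTreg, and 0.38 and 0.36 in ex-iTreg arrays. Of 14 tested myeloid markers 12 were higher in iTreg relative to nTreg and 12 lower in ex-iTreg relative to iTreg. In ex-iTreg relative to nTreg, 7 of these markers were higher and 1 lower. Their summed level on the linear scale was 3903 to 4077 in nTreg, 6919 to 6989 in iTreg and 4282 to 4375 in ex-iTreg arrays, with Itgam below the filter. Of 6 tested neutrophil markers, 5 were higher in iTreg relative to nTreg and 6 lower in ex-iTreg relative to iTreg, with summed levels of 7822 to 7909, 9362 to 10089 and 6399 to 6492, and with Elane below the filter. Both tested erythroid markers were higher in iTreg relative to nTreg and lower in ex-iTreg relative to iTreg, with summed levels of 427 to 441, 605 to 640.4 and 392 to 443 and with Hba-a1 and Hba-a2 below the filter. Of 5 tested B cell markers, 1 was higher and 2 lower in iTreg relative to nTreg, and 4 were lower in ex-iTreg relative to iTreg. Their summed level was 6029 to 6074 in nTreg, 6061 to 6107 in iTreg and 3325 to 3358 in ex-iTreg arrays, with Cd79a, Pax5 and Blnk below the filter. Of 3 tested dendritic cell markers 1 (Siglech), and the 1 tested stromal and endothelial marker (Pecam1), were higher in iTreg relative to nTreg and lower in ex-iTreg relative to iTreg. The median over the 87 chain genes of the value minus the gene's own mean was -0.05 and -0.10 in nTreg, 0.06 and 0.09 in iTreg, and 0.02 and 0.01 in ex-iTreg arrays. The part that the control, RNA end and marker differences have in the chain's differences was not tested.

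**Figure D1:**
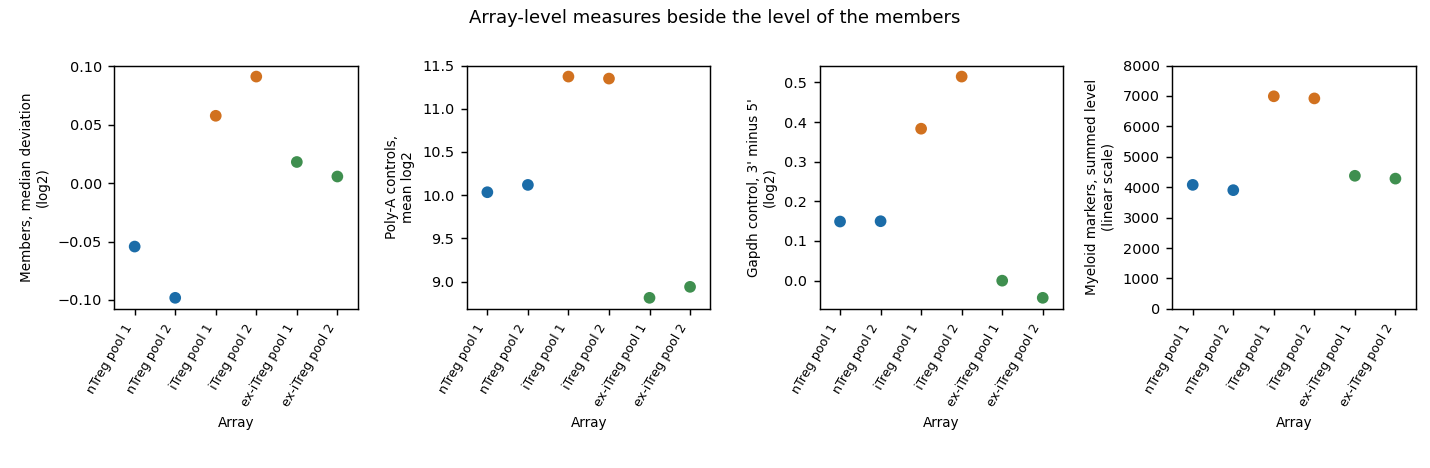
Points are the 6 arrays; from left to right the panels give the median deviation of the 87 chain genes from their own means (log2), the mean of the poly-A controls (log2), the 3′ minus 5′ difference of the Gapdh control (log2) and the summed level of myeloid markers on the linear scale. The iTreg arrays are the highest in all 4 panels; the nTreg arrays are the lowest in the first and last panels, and the ex-iTreg arrays in the other 2.

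Across the 87 genes the differences were small. Every difference below is in log2 units ± the standard error of limma's fit over all 6 arrays (n = 2 arrays per group), and a gene was called when its p-value, adjusted by Benjamini-Hochberg over 23484 probe sets, was under 0.05. No gene of the chain differed by 2-fold in any comparison; the largest difference was 0.71, a 1.63-fold change, whereas 2.24% of all tested genes passed 2-fold in iTreg relative to nTreg, 3.54% in ex-iTreg relative to iTreg and 5.79% in ex-iTreg relative to nTreg. The mean was highest in iTreg for 57 of the 87 genes (65.5%, against 35.5% of all tested genes) and in nTreg for 5 (5.75%, against 28.3%). It was lowest in nTreg for 54 of the 87 genes (62.1%, against 38.5% of all tested genes).

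**Figure D2:**
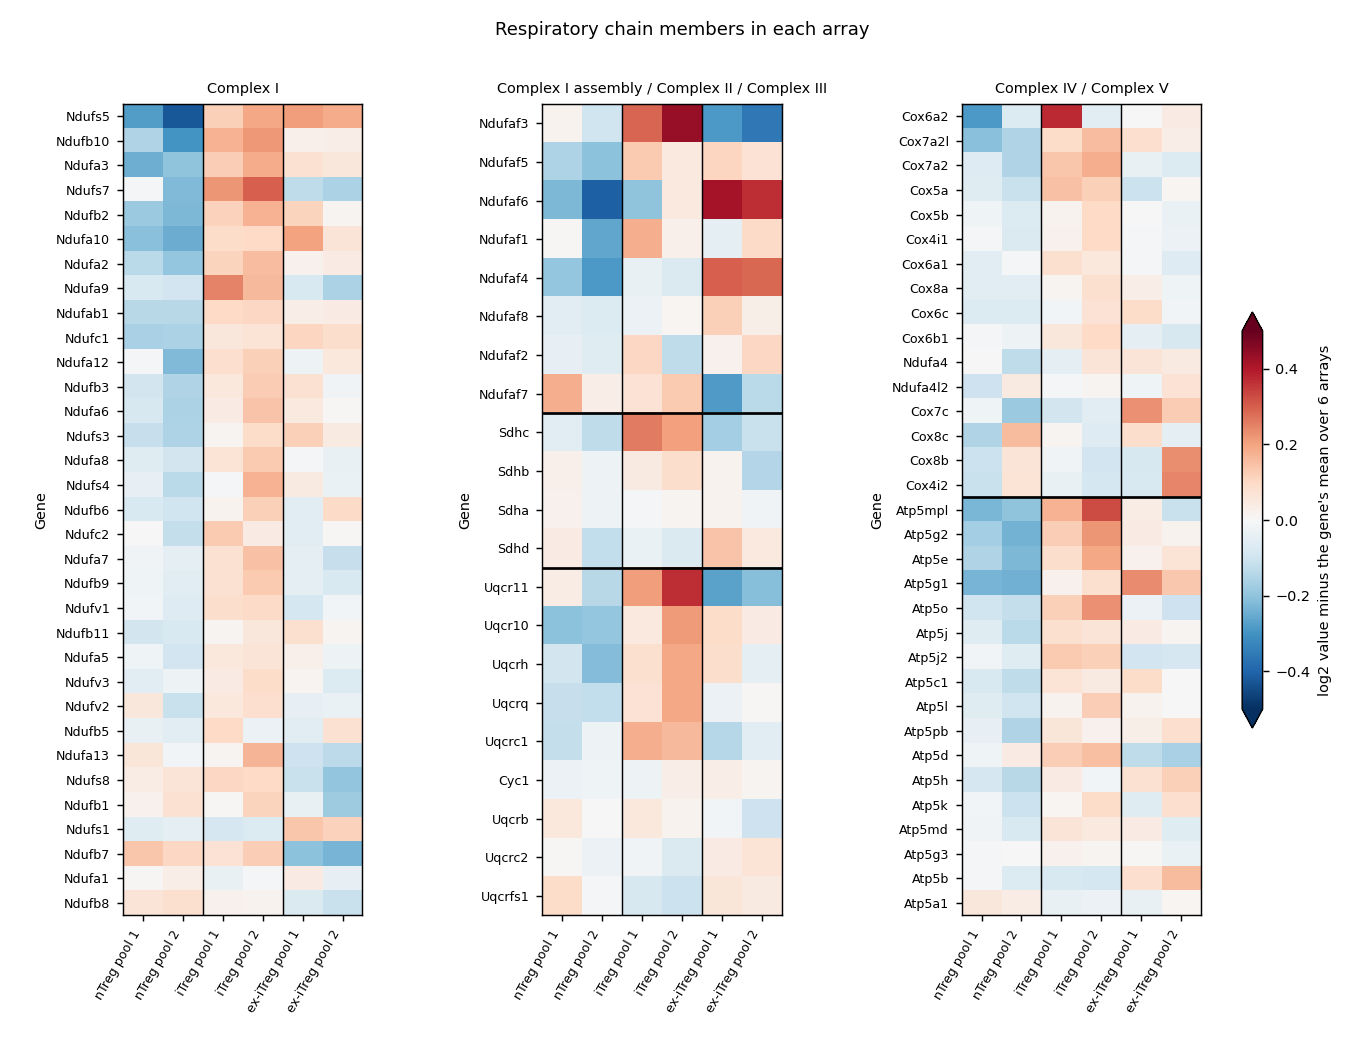
Each row is 1 of the 87 tested genes and each column 1 array; colour gives the log2 value minus the gene's mean over the 6 arrays, with rows sorted within each complex by the difference of iTreg from nTreg. The nTreg columns are mostly blue and the iTreg columns mostly red, with 54 genes lowest in nTreg and 57 highest in iTreg.

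In iTreg relative to nTreg arrays, 25 of the 87 genes were called higher and 0 lower (limma). Among all tested genes 29.1% were called in this comparison, 16.4% higher and 12.7% lower, so the 28.7% of the chain's genes that were called is near the background and the counts differ from it in direction. At an unadjusted p under 0.05, 34 of the 87 genes were higher and 0 lower. Of the 23484 tested probe sets, 9796 passed this threshold in either direction, so the chain's share was no larger than this background. The median difference was 0.14, against 0.04 over all tested genes, and 74 genes lay above 0 and 13 below. Both iTreg pools were above both nTreg pools for 64 genes (background 39.2%), and both were below for 6 (background 28.7%). With limma's intensity trend and robust options, 48 were called higher and 1 lower, Uqcrfs1 (-0.13, adjusted p = 0.0359). The number called higher was sensitive to single arrays: it was 2 without iTreg pool 2, 9 without iTreg pool 1, 7 without nTreg pool 2, 15 without nTreg pool 1 and 16 without either ex-iTreg pool.

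When ex-iTreg was set against iTreg, 3 of the 87 genes were called higher and 14 lower (limma). The background was 36.6% called, 15.6% higher and 21.0% lower. The median difference was -0.07, against -0.02 over all tested genes, and 60 genes lay below 0 and 27 above. Both ex-iTreg pools were below both iTreg pools for 46 genes (background 39.9%) and above for 12 (background 32.9%). Centring each array on the median of its tested probe sets changed the split to 5 higher and 8 lower. The count of lower calls was 3 without ex-iTreg pool 2, 5 without ex-iTreg pool 1, 4 without iTreg pool 2 and 6 without iTreg pool 1. The 3 higher calls became 0 without either ex-iTreg pool, 1 without iTreg pool 1 and 2 without iTreg pool 2.

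Set against nTreg, the ex-iTreg arrays had 17 genes called higher and 4 lower (limma). Of all tested genes 37.4% were called, 18.4% higher and 19.0% lower. The median difference was 0.07, against 0.03 over all tested genes, and 62 genes lay above 0 and 25 below. Both ex-iTreg pools were above both nTreg pools for 43 genes (background 38.1%) and below for 14 (background 33.0%). The number called higher was 4 without ex-iTreg pool 1, 5 without ex-iTreg pool 2, 7 without nTreg pool 2, 9 without nTreg pool 1 and 10 without either iTreg pool. The 4 lower calls became 1 without either ex-iTreg pool and 1 without nTreg pool 1. These 3 comparisons share arrays, so their counts are not independent of each other.

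**Figure D3:**
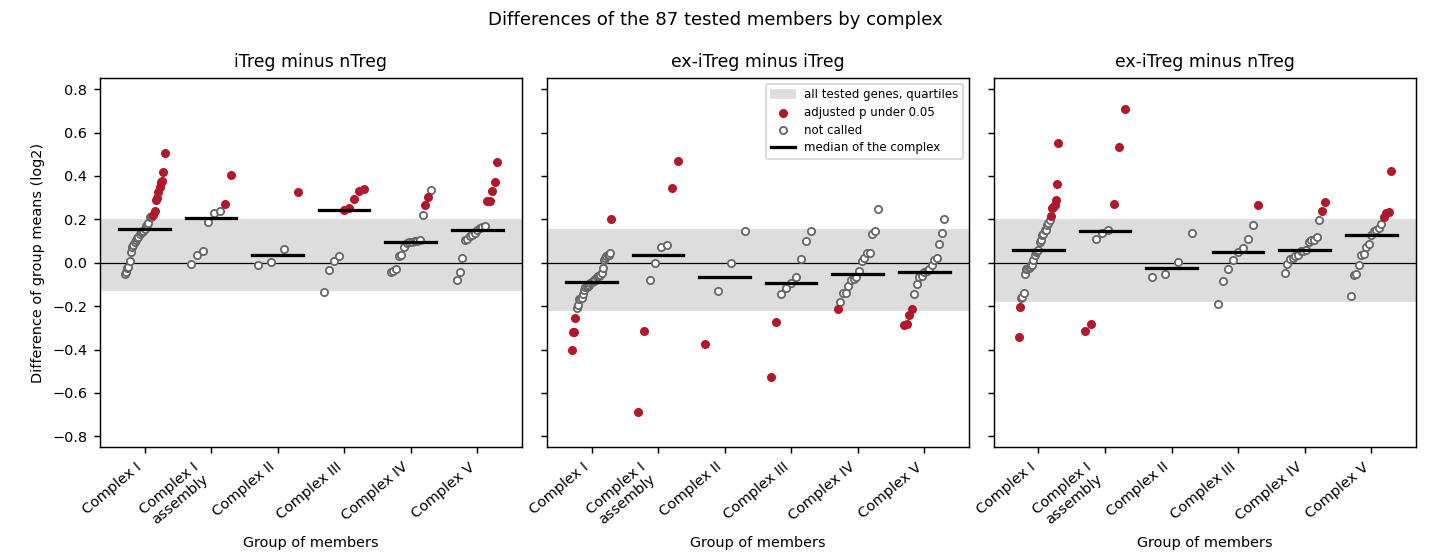
Points are the 87 tested genes by complex, placed by the difference of group means in log2 units in each of the 3 comparisons; red points had an adjusted p under 0.05, black lines are medians, and the grey band spans the quartiles of all tested genes. In iTreg minus nTreg all 25 called genes lie above 0, in ex-iTreg minus iTreg 14 of 17 lie below, and no point reaches 1 log2 unit.

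RefSeq promoter windows (GRCm38.p6, 300 bases, from 250 before to 50 after the gene start) were given for 74 of the 91 genes. Sites for nuclear respiratory factor 1 (NRF1), a factor known to bind many respiratory chain promoters, were searched on both strands as the core letters GCGCATG. The core was found for 14 of the 74 genes (18.9%), beside 4.41% of all 27025 genes with a window and 7.99% of the 8914 tested ones. The ETS-type letters CCGGAAG, of the family that includes GABPA, were found for 19 (25.7%, beside 9.93% of all genes and 20.9% of tested genes). The YY1 letters AAGATGG were found for 11 (14.9%, beside 7.28% and 8.66%), and the Sp1 letters GGGCGG for 35 (47.3%, beside 38.2% and 68.3%). Of the 21 genes called higher in iTreg relative to nTreg that had a window, 4 held the NRF1 core. These matches are descriptions of letters, not of bound sites. The stretches below, each the 250 bases before the start, are shown because they carry the NRF1 core in genes whose calls differed: Ndufaf4 and Atp5g2 were called in at least 1 comparison, and Cox6a1 and Sdhb in none with the probe sets used. A second Cox6a1 probe set was called higher in ex-iTreg relative to nTreg (limma). Capitals mark the NRF1 core on either strand, which overlaps its own reverse complement in Ndufaf4, Atp5g2 and Cox6a1 and lies on the opposite strand in Sdhb, and in Cox6a1 also the ETS-type letters on the opposite strand.
Ndufaf4, chr4:24897833-24898082, plus strand: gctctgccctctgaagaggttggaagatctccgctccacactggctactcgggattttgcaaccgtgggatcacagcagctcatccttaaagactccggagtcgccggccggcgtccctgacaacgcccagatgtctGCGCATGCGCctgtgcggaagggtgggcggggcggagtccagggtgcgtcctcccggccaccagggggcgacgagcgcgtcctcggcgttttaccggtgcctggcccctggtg
Atp5g2, chr15:102671048-102671297, minus strand: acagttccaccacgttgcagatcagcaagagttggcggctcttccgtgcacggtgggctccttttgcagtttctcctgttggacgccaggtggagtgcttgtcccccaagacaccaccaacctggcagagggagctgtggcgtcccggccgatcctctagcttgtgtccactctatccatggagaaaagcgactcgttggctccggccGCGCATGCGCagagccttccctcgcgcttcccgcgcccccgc
Cox6a1, chr5:115348959-115349208, minus strand: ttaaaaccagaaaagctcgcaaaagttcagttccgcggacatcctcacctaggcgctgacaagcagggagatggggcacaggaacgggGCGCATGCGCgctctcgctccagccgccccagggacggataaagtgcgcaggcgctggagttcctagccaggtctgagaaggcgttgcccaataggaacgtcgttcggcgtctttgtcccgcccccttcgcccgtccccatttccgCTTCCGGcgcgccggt
Sdhb, chr4:140961021-140961270, plus strand: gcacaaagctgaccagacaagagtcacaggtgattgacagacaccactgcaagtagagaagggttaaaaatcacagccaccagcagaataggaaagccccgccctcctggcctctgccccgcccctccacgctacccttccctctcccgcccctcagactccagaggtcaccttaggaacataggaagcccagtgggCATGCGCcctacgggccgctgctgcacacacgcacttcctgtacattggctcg

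Complex I takes electrons from NADH in its peripheral arm and pumps protons in its membrane arm. Of its 33 tested genes, 10 were called higher and 0 lower in iTreg relative to nTreg (limma), with a median difference of 0.16. Relative to iTreg, ex-iTreg had 1 higher and 4 lower, and relative to nTreg it had 7 higher and 2 lower. The shares called were 30.3%, 15.2% and 27.3% in these 3 comparisons, beside 29.1%, 36.6% and 37.4% of all tested genes. At an unadjusted p under 0.05, 15 of the 33 genes were higher and 0 lower in iTreg relative to nTreg. Beside them, 9796 of the 23484 tested probe sets passed this threshold in either direction.

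Ndufs5, an accessory subunit on the intermembrane-space side, had the largest difference of iTreg from nTreg. It read 9.42 and 9.27 in nTreg, 9.82 and 9.89 in iTreg, and 9.91 and 9.88 in ex-iTreg arrays. Both nTreg pools were below the other 4 arrays, and the iTreg and ex-iTreg pools overlapped. Ndufs5 rose by 0.51 ± 0.08 in iTreg relative to nTreg (adjusted p = 0.00493, limma) and by 0.55 ± 0.08 in ex-iTreg relative to nTreg (adjusted p = 0.00218). Both calls held with any 1 array left out, and it was the one gene of the 25 higher in iTreg for which that was so. A second probe set, shared with the pseudogene Ndufs5-ps, differed by 0.38 (adjusted p = 0.0198) and 0.26 (adjusted p = 0.0563) in the same comparisons.

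Among the 6 catalytic core subunits, which carry the flavin and the iron-sulfur clusters, 1 was called higher in iTreg relative to nTreg (limma). That share, 16.7%, stood beside 16.4% of all tested genes called higher. The called subunit was Ndufs7, which holds the last iron-sulfur cluster before coenzyme Q. It read 10.63 and 10.43 in nTreg, 10.87 and 10.94 in iTreg, and 10.52 and 10.48 in ex-iTreg arrays. The iTreg pools were above the other 4 arrays, and the nTreg and ex-iTreg pools overlapped. Ndufs7 rose by 0.37 ± 0.09 in iTreg relative to nTreg (adjusted p = 0.022) and fell by 0.40 ± 0.09 in ex-iTreg relative to iTreg (adjusted p = 0.0131). Leaving out nTreg pool 2 (adjusted p = 0.0675) or either iTreg pool (0.0629 for pool 1, 0.108 for pool 2) ended the first call. Leaving out iTreg pool 2 (adjusted p = 0.071) or either ex-iTreg pool (0.0599 and 0.0743) ended the second.

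Ndufs8, a core subunit next to Ndufs7 in the electron path, read 11.43 and 11.46 in nTreg, 11.49 and 11.49 in iTreg, and 11.28 and 11.19 in ex-iTreg arrays. Both ex-iTreg pools were the lowest. It fell by 0.26 ± 0.07 relative to iTreg (adjusted p = 0.0234, limma) and by 0.21 ± 0.07 relative to nTreg (adjusted p = 0.0492). Each call was lost without either ex-iTreg pool (adjusted p = 0.0588 and 0.136 relative to iTreg, 0.0935 and 0.231 relative to nTreg). Losing either pool of the other group also ended it, with adjusted p = 0.0903 and 0.0887 for the iTreg pools and 0.0937 and 0.131 for the nTreg pools, and the call relative to nTreg was lost without either iTreg pool (0.0798). Ndufs1, the large core subunit of the NADH side, moved the other way. It read 9.61 and 9.62 in nTreg, 9.59 and 9.60 in iTreg, and 9.81 and 9.79 in ex-iTreg arrays, and rose by 0.20 ± 0.06 relative to iTreg (adjusted p = 0.0395), a call lost without iTreg pool 1 (0.138), iTreg pool 2 (0.121), ex-iTreg pool 1 (0.162) or ex-iTreg pool 2 (0.131). Ndufs3, a core subunit of the peripheral arm, was called in ex-iTreg relative to nTreg (0.22 ± 0.07, adjusted p = 0.048), and leaving out any 1 array ended that call, with adjusted p from 0.0676 to 0.216. Ndufv1 and Ndufv2, which bind the flavin and an iron-sulfur cluster, differed by 0.13 and 0.10 in iTreg relative to nTreg and were not called in any comparison.

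Of the 12 tested accessory subunits of the Ndufa series, 5 were called higher in iTreg relative to nTreg (limma): Ndufa2, Ndufa3, Ndufa9, Ndufa10 and Ndufab1. That share, 41.7%, stood beside 16.4% of all tested genes called higher. Ndufa3, a small membrane-arm subunit, read 11.55 and 11.59 in nTreg, 11.92 and 11.98 in iTreg, and 11.87 and 11.85 in ex-iTreg arrays. Its nTreg pools were the lowest and its iTreg pools the highest. It rose by 0.38 ± 0.06 in iTreg (adjusted p = 0.00775, limma; 0.0506 without iTreg pool 2) and by 0.29 ± 0.06 in ex-iTreg relative to nTreg (adjusted p = 0.0138; 0.0508 without nTreg pool 1, 0.0799 without ex-iTreg pool 1 and 0.067 without ex-iTreg pool 2).

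Ndufa10, which resembles nucleoside kinases, read 10.57 and 10.53 in nTreg, 10.87 and 10.88 in iTreg, and 10.98 and 10.84 in ex-iTreg arrays, and the nTreg pools were below the rest. It rose by 0.36 ± 0.07 in ex-iTreg relative to nTreg (adjusted p = 0.00949, limma; 0.0642 without ex-iTreg pool 1). Ndufa9, a subunit at the joint of the arms, read 10.65 and 10.63 in nTreg, 10.98 and 10.89 in iTreg, and 10.65 and 10.57 in ex-iTreg arrays. Its iTreg pools stood above the other 4 arrays. Ndufa9 fell by 0.32 ± 0.07 in ex-iTreg relative to iTreg (adjusted p = 0.0129; 0.0708 without iTreg pool 1 and 0.0848 without ex-iTreg pool 2). Relative to nTreg, iTreg arrays were higher by 0.33 ± 0.07 for Ndufa10 (adjusted p = 0.0187) and by 0.29 ± 0.07 for Ndufa9 (adjusted p = 0.023). The Ndufa10 call ended without nTreg pool 2 (0.0669) or either iTreg pool (0.0735 and 0.0855), and the Ndufa9 call without either nTreg pool (0.0606 and 0.0732) or either iTreg pool (0.109 and 0.0604). Ndufa2, a small peripheral-arm subunit, rose by 0.30 ± 0.06 in iTreg (adjusted p = 0.0165; 0.0594 without nTreg pool 2, 0.0564 and 0.0869 without iTreg pool 1 or 2).

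Ndufab1 encodes the mitochondrial acyl carrier protein, which serves both complex I and lipoic acid synthesis. It read 10.38 and 10.38 in nTreg, 10.62 and 10.63 in iTreg, and 10.55 and 10.56 in ex-iTreg arrays. The groups did not overlap, and it rose by 0.24 ± 0.06 in iTreg relative to nTreg (adjusted p = 0.0277, limma). Leaving out any 1 array ended the call, with adjusted p from 0.0602 to 0.11. The probe set used can detect related sequences. A probe set unique by its suffix had a mean of 6.47 and differed by -0.52 (adjusted p = 0.0647) in this comparison and by 0.77 (adjusted p = 0.0144) in ex-iTreg relative to iTreg.

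The Ndufb and Ndufc subunits build the membrane arm, and 3 of their 12 tested genes were called higher in iTreg relative to nTreg (limma): Ndufb10, Ndufb2 and Ndufc1. That share, 25%, stood beside 16.4% of all tested genes called higher. Ndufb10 read 9.99 and 9.84 in nTreg, 10.31 and 10.36 in iTreg, and 10.16 and 10.17 in ex-iTreg arrays, so the ex-iTreg pools lay between the other groups. It rose by 0.42 ± 0.07 in iTreg (adjusted p = 0.00877; 0.0532 without iTreg pool 2). Ndufb2 read 9.89 and 9.85 in nTreg, 10.19 and 10.25 in iTreg, and 10.18 and 10.08 in ex-iTreg arrays. Its nTreg pools were the lowest, and it rose by 0.35 ± 0.07 in iTreg (adjusted p = 0.0128; 0.0721 without iTreg pool 2). Ndufc1 rose by 0.22 ± 0.06 in iTreg (adjusted p = 0.037), a call that ended with any 1 array left out (0.0746 to 0.138).

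The same 3 genes were the Ndufb and Ndufc genes called higher in ex-iTreg relative to nTreg (limma). They were 25% of those tested, beside 18.4% of all tested genes called higher. The differences were 0.25 ± 0.07 for Ndufb10 (adjusted p = 0.0369), 0.27 ± 0.07 for Ndufb2 (adjusted p = 0.0247) and 0.26 ± 0.06 for Ndufc1 (adjusted p = 0.0171). The Ndufb10 call held without nTreg pool 1 and ended without any other array (0.0601 to 0.144). The Ndufb2 call ended without either nTreg pool (0.0555 and 0.0822) or either ex-iTreg pool (0.141 and 0.0578), and the Ndufc1 call without either ex-iTreg pool (0.0935 and 0.0778).

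Ndufb7, another subunit on the intermembrane-space side, was lowest in ex-iTreg. It read 11.53 and 11.49 in nTreg, 11.46 and 11.51 in iTreg, and 11.18 and 11.15 in ex-iTreg arrays, with the ex-iTreg pools below the other 4 arrays and the others overlapping. Ndufb7 fell by 0.32 ± 0.06 relative to iTreg (adjusted p = 0.00966, limma) and by 0.34 ± 0.06 relative to nTreg (adjusted p = 0.00717). Leaving out iTreg pool 2 (adjusted p = 0.0567) or ex-iTreg pool 2 (0.064) ended the first call, and ex-iTreg pool 2 alone (0.0515) the second. The second Ndufb7 probe set was lower in both comparisons too, at -0.52 (adjusted p = 0.00184) and -0.24 (adjusted p = 0.0282), and was called higher in iTreg relative to nTreg (0.27, adjusted p = 0.0243), where the one used was not (-0.02).

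Assembly factors bind complex I only while it is built. Of the 8 tested Ndufaf genes, 2 were called higher in iTreg relative to nTreg (limma), 2 higher and 2 lower in ex-iTreg relative to iTreg, and 3 higher and 2 lower in ex-iTreg relative to nTreg. That was 25%, 50% and 62.5% of them, beside 29.1%, 36.6% and 37.4% of all tested genes. Over the 3 comparisons together, the largest rise and the largest fall of the 87 genes were both in Ndufaf genes. Within single comparisons, Ndufs5 rose most in iTreg relative to nTreg (0.51). Ndufb7 fell most in ex-iTreg relative to nTreg (-0.34).

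Ndufaf3 and Ndufaf4 encode partner proteins that act together on the quinone-binding module. Ndufaf3 read 8.57 and 8.46 in nTreg, 8.85 and 8.99 in iTreg, and 8.27 and 8.20 in ex-iTreg arrays, and no groups overlapped. It fell by 0.69 ± 0.08 in ex-iTreg relative to iTreg (adjusted p = 0.00143, limma), a 1.61-fold difference, and the call held with any 1 array left out. It also rose by 0.40 ± 0.08 in iTreg relative to nTreg (adjusted p = 0.0138; 0.0559 without nTreg pool 2 and 0.0749 without iTreg pool 2). It was also below nTreg in ex-iTreg, where it fell by 0.28 ± 0.08 (adjusted p = 0.0358), a call lost without nTreg pool 1 (0.13), ex-iTreg pool 1 (0.096) or ex-iTreg pool 2 (0.167).

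Ndufaf4, whose promoter is shown above, read 10.05 and 9.95 in nTreg, 10.20 and 10.17 in iTreg, and 10.54 and 10.53 in ex-iTreg arrays. The 3 groups did not overlap, and ex-iTreg was the highest. Ndufaf4 rose by 0.53 ± 0.07 in ex-iTreg relative to nTreg (adjusted p = 0.0014, limma), which held with any 1 array left out. It rose by 0.35 ± 0.07 relative to iTreg (adjusted p = 0.00837; 0.0529 without ex-iTreg pool 1 and 0.0503 without ex-iTreg pool 2). Its other probe set was called higher in all 3 comparisons, by 0.90 in ex-iTreg relative to nTreg (adjusted p = 0.00135), 0.51 relative to iTreg (0.0129) and 0.38 in iTreg relative to nTreg (0.044). The partners thus stood in opposite directions in ex-iTreg relative to iTreg, -0.69 for Ndufaf3 and 0.35 for Ndufaf4.

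Ndufaf6, a further assembly factor, read 6.85 and 6.67 in nTreg, 6.87 and 7.13 in iTreg, and 7.49 and 7.45 in ex-iTreg arrays. Both ex-iTreg pools were above the other 4 arrays, and the iTreg pools lay apart from each other. It rose by 0.71 ± 0.11 in ex-iTreg relative to nTreg (adjusted p = 0.00321, limma), the largest difference of any gene of the chain, and that call held with any 1 array left out. Relative to iTreg it rose by 0.47 ± 0.11 (adjusted p = 0.0161; 0.0719 without iTreg pool 1, 0.0837 without ex-iTreg pool 1 and 0.0681 without ex-iTreg pool 2).

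Ndufaf5 and Ndufaf7 encode enzymes that modify core subunits. Ndufaf5 read 7.42 and 7.37 in nTreg, 7.71 and 7.63 in iTreg, and 7.68 and 7.65 in ex-iTreg arrays, so only the nTreg pools stood apart. It rose by 0.27 ± 0.07 in each population relative to nTreg (adjusted p = 0.0265 in iTreg and 0.0212 in ex-iTreg, limma). The first call was lost without any 1 array (adjusted p from 0.0534 to 0.12), and the second without nTreg pool 2 (0.0758), ex-iTreg pool 1 (0.112) or ex-iTreg pool 2 (0.0808). Ndufaf7 read 7.62 and 7.47 in nTreg, 7.51 and 7.57 in iTreg, and 7.15 and 7.30 in ex-iTreg arrays. Its ex-iTreg pools were the lowest, and it fell by 0.31 ± 0.08 relative to iTreg (adjusted p = 0.0297), a call lost without iTreg pool 1 (0.0791), iTreg pool 2 (0.127), ex-iTreg pool 1 (0.156) or ex-iTreg pool 2 (0.0536). Relative to nTreg it fell by 0.32 ± 0.08 (adjusted p = 0.0285; 0.109 without nTreg pool 1 and 0.155 without ex-iTreg pool 1). Ndufaf1, Ndufaf2 and Ndufaf8 were not called in any comparison, with differences from -0.08 to 0.23.

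**Figure D4:**
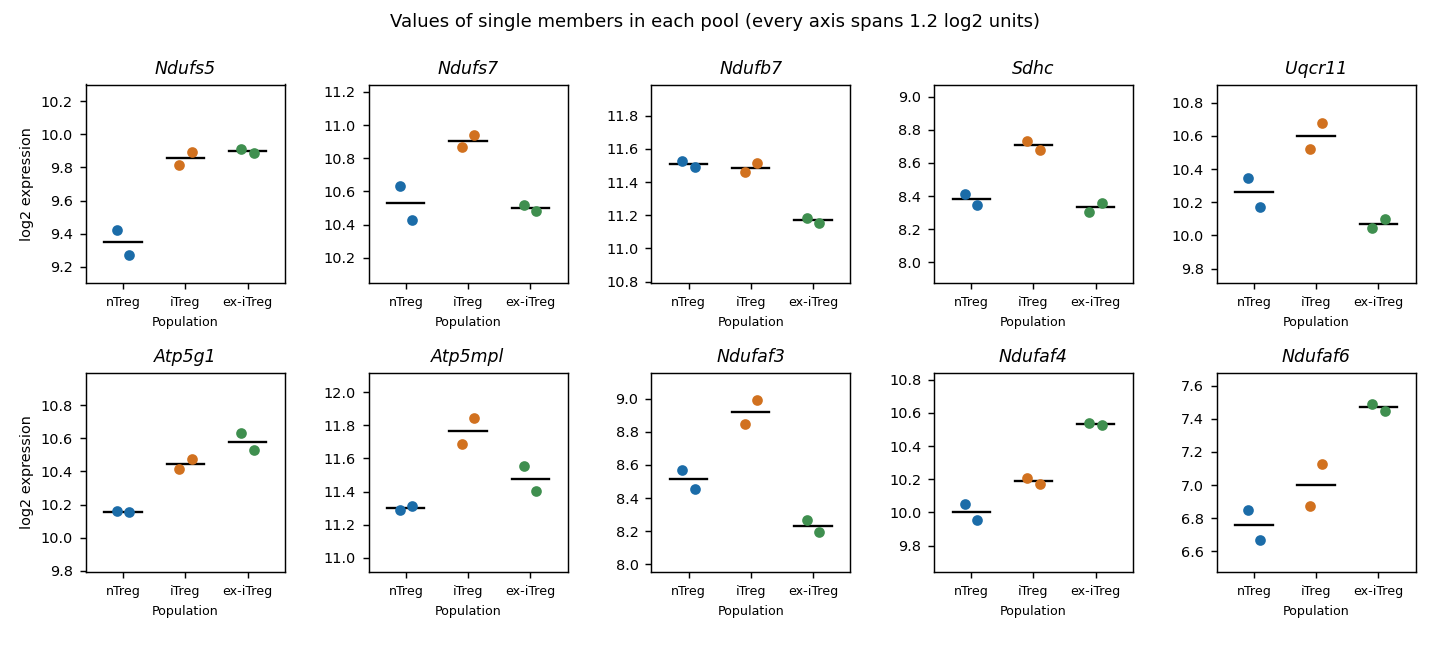
Each panel gives the log2 values of 1 gene in the 2 pools of each population as points, with the group mean as a line, on axes of equal span. Ndufs7, Sdhc, Uqcr11, Atp5mpl and Ndufaf3 are highest in iTreg, Ndufaf4, Ndufaf6 and Atp5g1 are highest in ex-iTreg, Ndufs5 is lowest in nTreg, and Ndufb7 is lowest in ex-iTreg.

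Complex II, succinate dehydrogenase, is also an enzyme of the citric acid cycle, and all of its 4 subunits are nuclear. Sdha, which carries the flavin and oxidises succinate, read between 10.82 and 10.87 in all 6 arrays with the probe set used. Sdhb, the iron-sulfur subunit whose promoter is shown above, differed by 0.06, -0.13 and -0.07 in iTreg relative to nTreg, ex-iTreg relative to iTreg and ex-iTreg relative to nTreg, and was not called (limma). Sdhd, a membrane anchor, differed by -0.01, 0.15 and 0.14 and was not called either. Sdhc, the other membrane anchor, was the exception among the 4. It read 8.41 and 8.35 in nTreg, 8.73 and 8.68 in iTreg, and 8.30 and 8.36 in ex-iTreg arrays, with the iTreg pools above the other 4. Sdhc rose by 0.32 ± 0.07 in iTreg relative to nTreg (adjusted p = 0.0146) and fell by 0.37 ± 0.07 in ex-iTreg relative to iTreg (adjusted p = 0.00645). The second call held with any 1 array left out; the first ended when nTreg pool 2 (0.0551) or either iTreg pool (0.0733 and 0.0546) was left out.

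The probe sets of this complex did not tell the same story for each gene. The other Sdhc probe set differed by -0.05 and -0.02 in these comparisons and was not called. For Sdha, 2 further tested probe sets fell in ex-iTreg relative to iTreg, by 0.30 (adjusted p = 0.0134, limma) and 0.34 (adjusted p = 0.0128), while the one used differed by -0.00.

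Complex III passes electrons from coenzyme Q to cytochrome c. In iTreg relative to nTreg 5 of its 9 tested genes were called higher and 0 lower (limma), with a median difference of 0.24; at an unadjusted p under 0.05, 0 were lower. The calls fell mostly among the small subunits, of which 4 of 5 were higher (Uqcr10, Uqcr11, Uqcrh and Uqcrq), whereas 1 of the 4 catalytic and core subunits was (Uqcrc1). Whether these shares differ was not tested. Relative to iTreg, 2 of the 9 were lower in ex-iTreg, Uqcr11 and Uqcrc1, and relative to nTreg 1 was higher, Uqcr10. In these 3 comparisons 55.6%, 22.2% and 11.1% of the complex's tested genes were called, beside 29.1%, 36.6% and 37.4% of all tested genes.

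Uqcr11, a small supernumerary subunit, read 10.35 and 10.17 in nTreg, 10.52 and 10.68 in iTreg, and 10.04 and 10.10 in ex-iTreg arrays, and the 3 groups did not overlap. It fell by 0.53 ± 0.09 in ex-iTreg relative to iTreg (adjusted p = 0.00576, limma), a 1.44-fold difference that was called with any 1 array left out. It rose by 0.34 ± 0.09 in iTreg relative to nTreg (adjusted p = 0.0346), a call that ended when nTreg pool 2 (0.123), either iTreg pool (0.0516 and 0.16) or either ex-iTreg pool (0.0655) was left out.

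Uqcr10, another small subunit, read 10.35 and 10.36 in nTreg, 10.60 and 10.77 in iTreg, and 10.64 and 10.59 in ex-iTreg arrays, with the nTreg pools below the rest. It rose by 0.33 ± 0.08 in iTreg (adjusted p = 0.0224, limma; 0.0695 without nTreg pool 1, 0.0664 without nTreg pool 2 and 0.107 without iTreg pool 2). It also rose by 0.27 ± 0.08 in ex-iTreg relative to nTreg (adjusted p = 0.0372; 0.102 and 0.0942 without nTreg pool 1 or 2, and 0.164 and 0.109 without ex-iTreg pool 1 or 2). Uqcrh, the hinge protein that guides cytochrome c, differed by 0.29 ± 0.09 (adjusted p = 0.0461) in iTreg relative to nTreg, and Uqcrq by 0.25 ± 0.07 (adjusted p = 0.0382). Leaving out any 1 array ended both calls, with adjusted p from 0.0587 to 0.196 for Uqcrh and from 0.0556 to 0.176 for Uqcrq. A Uqcrq probe set unique by its suffix, with a mean of 5.77, differed by -0.02.

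Uqcrc1, a core protein of the matrix side, read 10.32 and 10.42 in nTreg, 10.62 and 10.61 in iTreg, and 10.30 and 10.39 in ex-iTreg arrays, with the iTreg pools on top and the others overlapping. It rose by 0.24 ± 0.07 in iTreg relative to nTreg (adjusted p = 0.0423, limma), a call that any 1 array left out ended (0.0562 to 0.142). It fell by 0.27 ± 0.07 in ex-iTreg relative to iTreg (adjusted p = 0.0243), a call lost without iTreg pool 1 (0.0972), iTreg pool 2 (0.0853), ex-iTreg pool 1 (0.132) or ex-iTreg pool 2 (0.0659). The other core protein, Uqcrc2, differed by -0.03 and 0.10 in these comparisons and was not called. Cyc1, the cytochrome c1 subunit that hands electrons on, read between 10.65 and 10.71 in all 6 arrays. Uqcrfs1, the Rieske iron-sulfur protein, was the lowest of the 87 genes in iTreg relative to nTreg, at -0.13 ± 0.07 (adjusted p = 0.178).

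Complex IV, cytochrome c oxidase, surrounds its mitochondrially encoded core with nuclear subunits, several of which have tissue-specific forms. Of its 16 tested genes, 2 were called higher and 0 lower in iTreg relative to nTreg (limma; 0 lower at an unadjusted p under 0.05 too), with a median difference of 0.10. The ex-iTreg arrays had 1 gene lower than iTreg and 2 higher than nTreg. Called shares in the 3 comparisons were 12.5%, 6.25% and 12.5%, beside 29.1%, 36.6% and 37.4% of all tested genes.

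Cox7a2l, a protein known for joining complexes III and IV into supercomplexes, read 11.99 and 12.05 in nTreg, 12.30 and 12.36 in iTreg, and 12.29 and 12.24 in ex-iTreg arrays. The nTreg pools were the lowest. It rose by 0.30 ± 0.07 in iTreg (adjusted p = 0.0175, limma; 0.0617 without nTreg pool 1, 0.0534 without iTreg pool 1 and 0.093 without iTreg pool 2). It also rose in ex-iTreg relative to nTreg, by 0.24 ± 0.07 (adjusted p = 0.0321), and any 1 array left out ended that call (0.0507 to 0.155). Both of its other probe sets were called higher as well, by 0.31 and 0.36 in iTreg and by 0.25 and 0.34 in ex-iTreg relative to nTreg.

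Cox7a2, the widely expressed form of subunit VIIa, read 12.21 and 12.12 in nTreg, 12.41 and 12.46 in iTreg, and 12.24 and 12.21 in ex-iTreg arrays, and the iTreg pools stood above the rest. It rose by 0.27 ± 0.07 in iTreg relative to nTreg (adjusted p = 0.027, limma; 0.0926 without nTreg pool 2, 0.0783 and 0.123 without iTreg pool 1 or 2, and 0.0568 without either ex-iTreg pool). It fell by 0.21 ± 0.07 in ex-iTreg relative to iTreg (adjusted p = 0.0457; 0.107 and 0.173 without iTreg pool 1 or 2, and 0.132 and 0.184 without ex-iTreg pool 1 or 2). Cox7c, a membrane subunit, read 8.97 and 8.81 in nTreg, 8.90 and 8.95 in iTreg, and 9.23 and 9.12 in ex-iTreg arrays. Its ex-iTreg pools were the highest, and it rose by 0.28 ± 0.08 relative to nTreg (adjusted p = 0.0374; 0.135 without nTreg pool 2, 0.0611 without either iTreg pool, 0.183 without ex-iTreg pool 1 and 0.0797 without ex-iTreg pool 2). That Cox7c probe set can detect several transcripts. The other one, with a mean of 7.52, differed by 0.09 (adjusted p = 0.704), and the mean of all its probe sets was not called (0.145).

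The other widely expressed forms moved little. In iTreg relative to nTreg, Cox4i1 (the regulatory subunit that binds ATP) differed by 0.10, Cox5a by 0.22, Cox5b by 0.10, Cox6a1 by 0.10, Cox6b1 by 0.09 and Cox8a by 0.10, and with the probe sets used limma called none of these 6 in any comparison. A second Cox6a1 probe set, with a mean of 11.5, was called higher in ex-iTreg relative to nTreg (0.21, adjusted p = 0.0458) and differed by 0.21 in iTreg relative to nTreg (adjusted p = 0.0534). Another Cox5b probe set, with a mean of 8.04, was called lower in iTreg relative to nTreg (-0.37, adjusted p = 0.00667) and higher in ex-iTreg relative to iTreg (0.42, adjusted p = 0.00283). Of the 8 tissue-restricted forms, 5 passed the filter: Cox4i2, Cox6a2, Cox8b, Cox8c and Ndufa4l2. Their values ran from 5.64 (Cox8b) to 7.62 (Cox8c), and 0 were called by limma in any comparison, with 0 at an unadjusted p under 0.05. Cox6a2, the heart and muscle form, read 6.05 and 6.27 in nTreg and 6.71 and 6.28 in iTreg arrays, a difference of 0.34 ± 0.15 (adjusted p = 0.139), the largest that was not called in that comparison.

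ATP synthase turns its c ring and central stalk inside a catalytic head, held by a peripheral stalk. Of its 17 tested genes, 5 were called higher and 0 lower in iTreg relative to nTreg (limma; 0 lower at an unadjusted p under 0.05), with a median difference of 0.15, and for 15 of the 17 both iTreg pools lay above both nTreg pools. The ex-iTreg arrays had 4 of the 17 lower than iTreg and 4 higher than nTreg. For the 17 genes the called shares were 29.4%, 23.5% and 23.5%, beside 29.1%, 36.6% and 37.4% of all tested genes. Both iTreg pools lay above both nTreg pools for 39.2% of all tested genes.

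The c ring is made from 3 genes, Atp5g1, Atp5g2 and Atp5g3, that encode the same mature protein behind different import signals. Atp5g1 read 10.16 and 10.16 in nTreg, 10.41 and 10.47 in iTreg, and 10.63 and 10.53 in ex-iTreg arrays, so the groups did not overlap. It rose by 0.42 ± 0.07 in ex-iTreg relative to nTreg (adjusted p = 0.00427, limma), which held with any 1 array left out, and by 0.29 ± 0.07 in iTreg (adjusted p = 0.0244; 0.0669 and 0.0726 without nTreg pool 1 or 2, and 0.0681 and 0.117 without iTreg pool 1 or 2). Atp5g2, whose promoter is shown above, read 11.04 and 10.98 in nTreg, 11.34 and 11.43 in iTreg, and 11.25 and 11.23 in ex-iTreg arrays, again without overlap. It rose by 0.37 ± 0.07 in iTreg relative to nTreg (adjusted p = 0.0101; 0.0613 without iTreg pool 2) and by 0.23 ± 0.07 in ex-iTreg (adjusted p = 0.0397; 0.0535 to 0.163 with any 1 array left out). Atp5g3 read between 12.64 and 12.69 in all 6 arrays and was not called.

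The catalytic head and central stalk showed 1 called gene of 5 in iTreg relative to nTreg. That share, 20%, stood beside 16.4% of all tested genes called higher. Atp5e, the epsilon subunit of the central stalk, read 11.48 and 11.41 in nTreg, 11.72 and 11.82 in iTreg, and 11.65 and 11.70 in ex-iTreg arrays, with the nTreg pools the lowest. It rose by 0.33 ± 0.07 in iTreg (adjusted p = 0.0176, limma; 0.0664 without nTreg pool 2 and 0.0946 without iTreg pool 2). In ex-iTreg relative to nTreg it differed by 0.23 ± 0.07 (adjusted p = 0.0449; 0.0575 to 0.189 with any 1 array left out). Atp5d, the delta subunit beside it, read 12.19 and 12.25 in nTreg, 12.34 and 12.36 in iTreg, and 12.08 and 12.05 in ex-iTreg arrays. The groups did not overlap, and it fell by 0.28 ± 0.06 in ex-iTreg relative to iTreg (adjusted p = 0.0152; 0.057 and 0.0751 without iTreg pool 1 or 2, and 0.0653 and 0.0891 without ex-iTreg pool 1 or 2).

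The alpha and beta subunits, which form the catalytic hexamer, were not called with the probe sets used. Atp5a1 differed by -0.08, 0.02 and -0.06, and Atp5b by -0.04, 0.20 (adjusted p = 0.0513, limma) and 0.16, in iTreg relative to nTreg, ex-iTreg relative to iTreg and ex-iTreg relative to nTreg. A second Atp5a1 probe set, with a mean of 11.95, fell by 0.21 in iTreg relative to nTreg (adjusted p = 0.0474) and rose by 0.29 in ex-iTreg relative to iTreg (adjusted p = 0.0139). Together with the Cox5b probe set above, it was 1 of 2 among the 164 tested probe sets of these genes that were called lower in iTreg relative to nTreg, where 42 were called higher. Among all tested probe sets, 14.6% were higher and 14.5% lower in that comparison. Of the 164, ex-iTreg had 12 higher and 27 lower relative to iTreg (all tested probe sets 17.7% and 19.3%, 37.0% in either direction), and 31 higher and 5 lower relative to nTreg (18.1% and 18.4%, 36.4% in either direction).

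In the membrane part and peripheral stalk, Atp5mpl, a small proteolipid, read 11.29 and 11.32 in nTreg, 11.69 and 11.84 in iTreg, and 11.55 and 11.40 in ex-iTreg arrays, with no overlap between groups. It rose by 0.46 ± 0.08 in iTreg relative to nTreg (adjusted p = 0.0101, limma; 0.0581 without iTreg pool 2). It fell by 0.29 ± 0.08 in ex-iTreg relative to iTreg (adjusted p = 0.0389), a call lost without either nTreg pool (0.0527), iTreg pool 2 (0.18), ex-iTreg pool 1 (0.0598) or ex-iTreg pool 2 (0.198). Atp5o, the stalk protein that grips the head, read 11.29 and 11.27 in nTreg, 11.50 and 11.62 in iTreg, and 11.36 and 11.28 in ex-iTreg arrays, with the iTreg pools on top. It rose by 0.28 ± 0.07 in iTreg relative to nTreg (adjusted p = 0.0279; 0.0521 to 0.137 with any 1 array left out) and fell by 0.24 ± 0.07 in ex-iTreg relative to iTreg (adjusted p = 0.0379; 0.0573 and 0.175 without iTreg pool 1 or 2, and 0.0924 and 0.182 without ex-iTreg pool 1 or 2). Atp5h, the d subunit of the stalk, was called in ex-iTreg relative to nTreg (0.21 ± 0.06, adjusted p = 0.0458; 0.0696 to 0.192 with any 1 array left out). Its other probe set was called higher in that comparison too (0.26, adjusted p = 0.02) and in iTreg relative to nTreg (0.27, adjusted p = 0.0218), where the one used was not (0.13).

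For 2 genes, probe sets were called in opposite directions in ex-iTreg relative to iTreg (limma). For Atp5j2, the f subunit of the membrane part, the probe set used and a second one fell by 0.21 (adjusted p = 0.0353) and 0.22 (adjusted p = 0.044), while another, with a mean of 6.98, rose by 0.45 (adjusted p = 0.0157). The call of the probe set used was lost without iTreg pool 1 (0.125), iTreg pool 2 (0.114), ex-iTreg pool 1 (0.143) or ex-iTreg pool 2 (0.13). For Ndufs4, an accessory subunit of complex I, the probe set used was not called (-0.08), 1 other fell by 0.40 (adjusted p = 0.0369) and 1 rose by 0.66 (adjusted p = 0.00657).

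Other calls changed with the choice of probe set (limma). The mean of all probe sets of a gene takes in probe sets below the filter, such as the second Atp5g1 one (mean 3.46, not tested). With that mean, the calls in iTreg relative to nTreg ended for Ndufab1 (adjusted p = 0.87), Atp5g1 (0.733), Uqcrq (0.236), Sdhc (0.183), Atp5g2 (0.105) and Uqcr10 (0.0547). Those in ex-iTreg relative to iTreg ended for Atp5j2 (0.978) and Sdhc (0.0637). Those in ex-iTreg relative to nTreg ended for Cox7c (0.145), Atp5g2 (0.14), Ndufb2 (0.0848), Ndufs8 (0.0829), Uqcr10 (0.0605) and Ndufa10 (0.0534). Without multi-target probe sets, the calls in iTreg relative to nTreg ended for Uqcrh (0.11), Uqcrq (0.886) and Ndufab1 (0.0624). Those in ex-iTreg relative to nTreg ended for Cox7c (0.704), Ndufs8 (0.106) and Ndufs3 (0.0514). The only Ndufs3 probe set is not multi-target, so its values stayed the same and only the set of tested probe sets changed. Ndufa2, Atp5d, Atp5e and Ndufaf7 had no tested probe set left under that choice.

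With any 1 array left out, the calls that held were 1 of 25 in iTreg relative to nTreg (Ndufs5), 3 of 17 in ex-iTreg relative to iTreg (Sdhc, Uqcr11 and Ndufaf3) and 4 of 21 in ex-iTreg relative to nTreg (Ndufs5, Atp5g1, Ndufaf4 and Ndufaf6). Of all tested genes that were called (limma), 39.5%, 47.2% and 53.1% held in the same 3 comparisons, and whether these shares differ from those of the chain was not tested. These 7 genes span complexes I, II and III, ATP synthase and the assembly factors.

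Other mitochondrial gene lists were read beside the chain. Among all tested genes, 16.4% were called higher and 12.7% lower in iTreg relative to nTreg. The shares were 15.6% and 21.0% in ex-iTreg relative to iTreg, and 18.4% and 19.0% in ex-iTreg relative to nTreg. They are the background for each list below. Mitochondrial ribosomal proteins, which translate the mitochondrially encoded subunits, had 38 of 76 tested genes higher and 1 lower in iTreg relative to nTreg (limma; median 0.23), and 32 higher and 1 lower in ex-iTreg relative to nTreg (median 0.20). Between ex-iTreg and iTreg, 7 were higher in ex-iTreg and 5 lower (median 0.00). Mrpl23, a protein of the large subunit, read 9.35 and 9.25 in nTreg, 9.92 and 9.99 in iTreg, and 10.11 and 9.98 in ex-iTreg arrays. Its nTreg pools lay below the rest, and it rose by 0.66 ± 0.08 in iTreg (adjusted p = 0.00228) and 0.75 ± 0.08 in ex-iTreg relative to nTreg (adjusted p = 0.000699). Of the import machinery, which brings nuclear-encoded subunits into the organelle, 7 of 22 tested genes were higher and 0 lower in iTreg relative to nTreg, and 11 were higher and 1 lower in ex-iTreg relative to nTreg. Between ex-iTreg and iTreg, 4 were higher and 2 lower. Timm8a1, a chaperone of the intermembrane space, rose by 0.48 ± 0.07 in iTreg (adjusted p = 0.00428) and by 0.71 ± 0.07 in ex-iTreg relative to nTreg (adjusted p = 0.000501). Timm10b rose by 0.46 ± 0.07 in iTreg relative to nTreg (adjusted p = 0.0042) and fell by 0.45 ± 0.07 in ex-iTreg relative to iTreg (adjusted p = 0.0032).

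**Figure D5:**
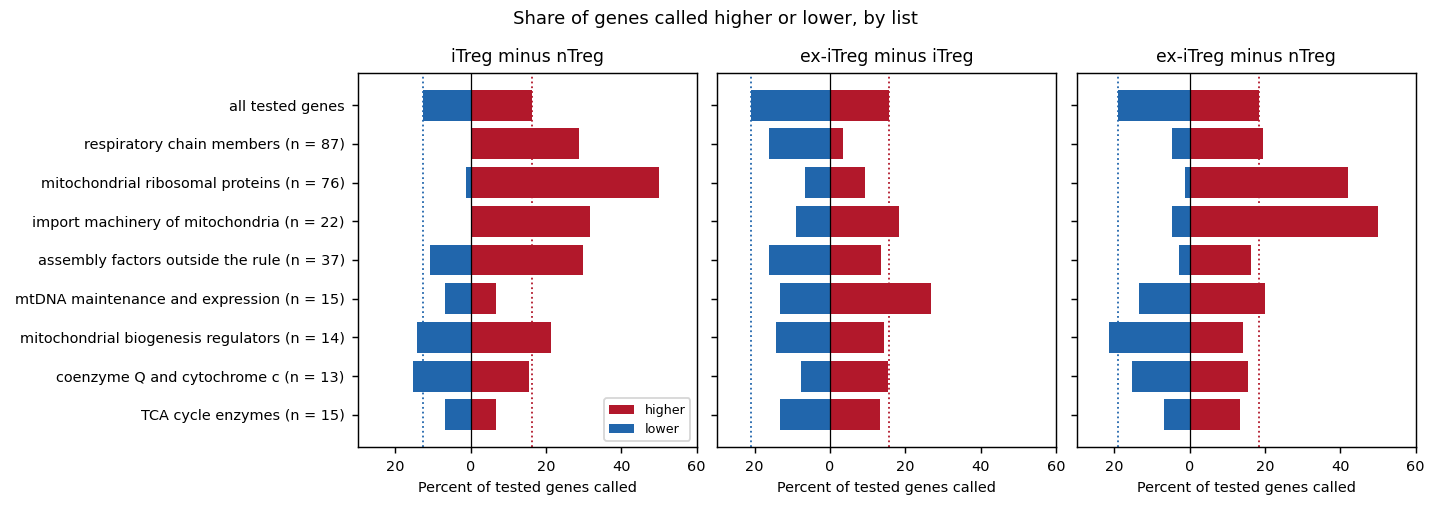
Bars give the percent of tested genes called higher (red, to the right) or lower (blue, to the left) by limma in each list and comparison, with n the number tested; dotted lines mark the shares of all tested genes. Mitochondrial ribosomal proteins reach 50% higher in iTreg minus nTreg, and the respiratory chain genes have no blue bar in that panel.

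Assembly factors without the Ndufaf prefix, 37 tested, had 11 higher and 4 lower in iTreg relative to nTreg (limma), 5 higher and 6 lower in ex-iTreg relative to iTreg, and 6 higher and 1 lower in ex-iTreg relative to nTreg. Sdhaf1, which helps insert the iron-sulfur clusters of Sdhb, read 9.28 and 9.27 in nTreg, 8.66 and 8.68 in iTreg, and 8.13 and 8.11 in ex-iTreg arrays. Its groups were far apart: it fell by 0.60 ± 0.06 in iTreg relative to nTreg (adjusted p = 0.00124) and by a further 0.55 ± 0.06 in ex-iTreg relative to iTreg (adjusted p = 0.00111), so that it was 1.15 lower in ex-iTreg than in nTreg arrays (a difference of -1.15, adjusted p = 3.99e-05). Cox10, which makes the heme of complex IV, rose by 0.79 ± 0.12 in ex-iTreg relative to nTreg (adjusted p = 0.00388). Of 13 coenzyme Q and cytochrome c genes, 2 were higher and 2 lower in iTreg relative to nTreg. Coq8a, a kinase-like protein of coenzyme Q synthesis, read 9.04 and 9.14 in nTreg, 7.74 and 7.64 in iTreg, and 7.56 and 7.53 in ex-iTreg arrays. It fell by 1.40 ± 0.07 in iTreg (adjusted p = 0.000133) and by 1.54 ± 0.07 in ex-iTreg relative to nTreg (adjusted p = 2.42e-05), larger differences than any of the 87 chain genes showed.

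The mitochondrial genome itself was represented by 1 probe set with a single symbol, ND5, a proton-pumping subunit of complex I. It read 12.78 and 12.74 in nTreg, 12.62 and 12.66 in iTreg, and 12.94 and 13.01 in ex-iTreg arrays, and the groups did not overlap. ND5 differed by -0.12 ± 0.06 in iTreg relative to nTreg, rose by 0.33 ± 0.06 in ex-iTreg relative to iTreg (adjusted p = 0.00885, limma) and rose by 0.21 ± 0.06 in ex-iTreg relative to nTreg (adjusted p = 0.0417). Its order of groups, with iTreg the lowest, differed from that of most nuclear genes of the chain.

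Among 14 tested regulators of mitochondrial biogenesis, 3 were higher and 2 lower in iTreg relative to nTreg (limma), 2 and 2 in ex-iTreg relative to iTreg, and 2 and 3 in ex-iTreg relative to nTreg. Of all tested genes 29.1%, 36.6% and 37.4% were called in these comparisons, in either direction. Pprc1, a coactivator of the PGC-1 family, read 7.84 and 7.77 in nTreg, 8.26 and 8.32 in iTreg, and 8.57 and 8.57 in ex-iTreg arrays, and rose by 0.49 ± 0.07, 0.28 ± 0.07 and 0.77 ± 0.07 in the same 3 comparisons (adjusted p = 0.00335, 0.0178 and 0.000293). Gabpb1, the partner subunit of the ETS-family factor GABPA, fell by 0.60 ± 0.09 in iTreg relative to nTreg (adjusted p = 0.00487) and by 0.91 ± 0.09 in ex-iTreg relative to nTreg (adjusted p = 0.000511). Nrip1, a corepressor of mitochondrial genes, fell by 0.57 ± 0.06 in iTreg relative to nTreg (adjusted p = 0.00153). Of 15 citric acid cycle enzymes, 1 was higher (Ogdh, 0.37) and 1 lower (Dld, -0.39) in that comparison. Of 15 genes of mitochondrial DNA upkeep and expression, 1 was higher and 1 lower, and of 7 nucleotide, phosphate and proton carriers 0 were called (limma). Genes of proliferation, 14 tested, had 1 higher and 3 lower in iTreg relative to nTreg and 2 higher and 8 lower in ex-iTreg relative to iTreg. In ex-iTreg relative to nTreg, 0 of them were higher and 8 lower (median -0.36).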

How the data were processed

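The 6 arrays were grouped by the labels' sorted cell type. For every probe set the authors deposited 1 log2 expression value an array; the submitters' processing notes name RMA (background correction, quantile normalization and summary of probes), with no version given in the sources used here. The median of an array lay between 5.47 and 5.49. Of 45101 probe sets, 64 were controls; of the rest 34945 had 1 symbol, 932 several and 9160 none in the platform annotation. All 91 genes matched a RefSeq table (GRCm38.p6) by Entrez identifier, and 0 symbols differed. Multi-target probe sets (suffix s or x) stood for 22 of the 91 genes, and their values may include related transcripts.

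Non-control probe sets above 5.48 in at least 2 of 6 arrays were tested (23484, for 11015 genes), with limma (version 3.58.1, run in R 4.3.3): lmFit took 1 mean for each group, and eBayes joined 3 residual degrees of freedom with a prior worth 3.37. Calls were made at 0.05 after Benjamini-Hochberg adjustment. The script was tested on simulated data. An exact two-sided test of 2 arrays against 2 cannot go below p = 0.333, so calls rest on the shared spread, and the number of arrays limits the precision. Alternatives were other filters, other choices of probe set, quantile normalization, median centring, limma's trend and robust options, the 2 groups alone, the pool number as a block, and each array left out.

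Named genes were, in each comparison and complex, up to 5 called genes with the largest difference whose pools did not overlap, plus core subunits, isoform genes of complex IV, c ring genes, genes below the filter, genes whose probe sets were called in opposite directions, and up to 3 genes per other list and comparison by t. Others are named to complete a group or to say which moved, chosen after their values were seen. The members, lists and motifs were chosen with earlier results of these data known. The labels do not say whether equal pool numbers share mice. Deviations of same-numbered pools correlated at -0.007, -0.04 and -0.088. These values show no large shared shift, but they cannot show that the pools held separate mice. The conventional T cells used as a standard by the authors are not analysed here.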

Additional observations from a re-analysis of the deposited data

How the results depend on the processing

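The median difference of the respiratory chain genes kept its sign under each alternative, between 0.113 and 0.170 in iTreg relative to nTreg (0.170 without nTreg pool 1), -0.0988 and -0.0394 in ex-iTreg relative to iTreg (-0.0988 to -0.0493 with 1 array left out, the first without iTreg pool 1) and 0.052 and 0.0951 in ex-iTreg relative to nTreg. Counts of calls (limma) moved more. In iTreg relative to nTreg the 25 higher calls became 10 without the filter, 16 in a fit of the 2 groups alone, 48 with trend and robust options, and 2 to 16 with 1 array left out; the 0 lower calls became 1 with trend and robust options and stayed 0 otherwise. In ex-iTreg relative to iTreg the 3 higher calls became 5 with a filter in all 6 arrays, 5 with quantile normalization, 5 with median centring, 6 with the mean of all probe sets, 7 without s or x probe sets, 7 with trend and robust options, and 0 to 4 with 1 array left out. The 14 lower calls became 6 without the filter, 8 with median centring, 26 with trend and robust options, and 3 to 13 with 1 array left out. In ex-iTreg relative to nTreg the 17 higher calls became 6 without the filter, 10 with the 2 groups alone, 30 with trend and robust options, and 4 to 10 with 1 array left out; the 4 lower calls became 1 without the filter, 2 without s or x probe sets, 8 with trend and robust options, and 1 to 3 with 1 array left out. With the replicate block (pool number) the counts, higher and lower, were 18 and 0, 2 and 9, and 10 and 2 in the 3 comparisons. Whether equal pool numbers share mice is not stated. The cause of these changes was not tested.

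Without s or x probe sets, Ndufab1 reversed to -0.52 in iTreg relative to nTreg (adjusted p = 0.0624, limma) and to 0.77 in ex-iTreg relative to iTreg (adjusted p = 0.0135), and Uqcrq to -0.0158 in iTreg relative to nTreg. With the mean of all probe sets, Atp5j2 reversed to 0.0027 in ex-iTreg relative to iTreg. For Ndufab1 and Uqcrq another probe set replaced the one used, and for Atp5j2 the value averages 3 probe sets.

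With 2 arrays per group, most calls of the chain rest on differences of 0.2 to 0.5 log2 units and on the spread shared by all probe sets. Values near the filter level are near background, which limits Cox4i2, Cox6a2, Cox8b and Ndufa4l2.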
